A study of Homo sapiens with 4 samples.

Results

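DNA replication and repair mRNAs were examined in RNA that came down with EXOSC10, the nuclear 3′ to 5′ exoribonuclease of the RNA exosome, or with control IgG. Members were chosen by gene symbol only: the MCM, ORC, RFC, Fanconi anaemia and XRCC families, the catalytic and accessory subunits of DNA polymerases alpha, delta and epsilon, the RAD genes of the damage response, BRCA1, BRCA2, CHEK1, CHEK2, ATM, ATR, TONSL, PCNA, CDC6, CDC7, CDC45, BLM and PALB2. This gave 69 genes of the 12838 symbols in the expression table. A further 2 symbols that fit the rule, FANCB and FANCL, had no entry there and were not analysed here. By role there were 18 genes of origin licensing and the replicative helicase, 16 of the polymerases, clamp and clamp loader, 7 of the checkpoint, 15 of homologous recombination, 8 of the Fanconi anaemia pathway and 5 of end joining and other repair.

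All libraries came from LM2-4175 cells, a line selected from MDA-MB-231 breast carcinoma cells for metastasis to the lung. The cells held a construct from which doxycycline induces CerS4, one of the ceramide synthases, and grew under puromycin and hygromycin. The 4 groups were untreated cells precipitated with IgG, untreated cells precipitated with the EXOSC10 antibody, and the same pair from cells given doxycycline at 5 µg/mL for 48 h. Each group was 1 library, so ratios of single libraries have no check by replicates. The construct was present in every group, no group had doxycycline without it, and CERS4 itself was not analysed here, so its induction was not checked.

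Replication starts where the origin recognition complex, with CDC6, loads rings of MCM proteins onto DNA. Kinases and CDC45 then turn these rings into the helicase that opens the fork, polymerase alpha lays down the primers, and polymerases delta and epsilon extend them on the PCNA clamp, which replication factor C loads. Forks that stall activate ATR and CHEK1, broken ends activate ATM and CHEK2, and breaks are repaired by homologous recombination or by Ku-dependent end joining, with the Fanconi anaemia proteins acting on crosslinks. Many of these genes are transcribed in waves under E2F factors as cells enter S phase. EXOSC10 is best known for trimming ribosomal RNA precursors and for turning over RNAs in the nucleus.

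The libraries held 3723331 to 7575192 reads, of which 56.3% to 83.77% came from ribosomal RNA genes, the lowest share being that of the doxycycline EXOSC10 library. Outside ribosomal RNA that library had 2408201 reads, against 1023373 to 1229754 in the others. Values are deposited CPM (reads scaled to a fixed total per library), rescaled with TMM (trimmed mean of M values) factors from 0.4508 to 2.5465. Scaling by library totals instead moved the median of all genes by 0.82 to 2.46 on the log2 scale for EXOSC10 over IgG and by 1.03 for doxycycline over untreated in the EXOSC10 libraries, so directions are stated relative to the bulk of genes under TMM. Of the markers of a mesenchymal breast carcinoma line, 6 of 6 were present, with 4463.4 to 8968.4 reads in all, led by VIM and MSN. Luminal epithelial markers had 234.4 to 1624.9 reads from 4 of 6 genes, mostly KRT19, with ESR1 and EPCAM not among the entries. Fibroblast markers had 23.0 to 130.0 reads, endothelial markers 2.0 to 31 and blood and immune markers 26.0 to 195.0, the last from CD68 alone. In these bulk libraries, fewer cells in a phase of the cycle and less RNA per cell cannot be told apart.

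The members gave 1420 reads with IgG and 2958 with EXOSC10 in untreated cells, and 1802 with IgG and 8138 with EXOSC10 after doxycycline. As shares of reads outside ribosomal RNA these were 0.1349% (exact 95% interval 0.1279 to 0.142), 0.289% (0.2787 to 0.2996), 0.1465% (0.1398 to 0.1535) and 0.3379% (0.3306 to 0.3453). Both EXOSC10 libraries thus held a larger share of these mRNAs than both IgG libraries. After TMM scaling the summed members stood close to equal, with a log2 ratio of EXOSC10 over IgG of 0.05 (−0.04 to 0.14) in untreated cells and 0.14 (0.06 to 0.21) with doxycycline. Here and below, intervals are 95% counting intervals and cover counting error only. Reads of 31 members were whole numbers in all 4 libraries, while those of the other 38 had been divided between gene models, and 16 members overlap another gene with entries of its own.

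Beyond their names, some of the members have promoter motifs in common, although most had no E2F-like match. RefSeq promoter sequences (GRCh38.p14, 250 bases before to 50 after the gene start) were matched for 61 of the 69 members. An E2F-like site, taken as TTTCCCGC, TTTGGCGC, TTTCGCGC or TTTGCCGC on either strand, was found in 19 of them, or 31.1%, against 5.40% of the 10033 promoters of genes in the table and 3.33% of all 27305 promoters. A CCAAT box, CCAAT on either strand, was found in 34, or 55.7%, against 37.2% and 35.7%. Base composition was alike, with a median GC content of 64.3% in members and 65.3% in genes of the table. Promoters of 5 members described below are shown because they carry such matches (ORC5 has none), given in capitals and 5′ to 3′ on the gene's strand. They lie at chr3:127598161-127598460 on the plus strand (MCM2), chr6:52284693-52284992 on the minus strand (MCM3), chr2:135876394-135876693 on the minus strand (MCM6), chr7:100101348-100101647 on the minus strand (MCM7) and chrX:24693668-24693967 on the plus strand (POLA1).
MCM2: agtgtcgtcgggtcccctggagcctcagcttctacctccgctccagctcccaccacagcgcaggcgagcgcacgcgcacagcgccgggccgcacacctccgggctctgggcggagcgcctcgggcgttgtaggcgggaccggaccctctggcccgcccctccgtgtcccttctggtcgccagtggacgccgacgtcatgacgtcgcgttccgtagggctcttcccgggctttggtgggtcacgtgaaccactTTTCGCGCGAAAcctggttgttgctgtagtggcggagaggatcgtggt
MCM3: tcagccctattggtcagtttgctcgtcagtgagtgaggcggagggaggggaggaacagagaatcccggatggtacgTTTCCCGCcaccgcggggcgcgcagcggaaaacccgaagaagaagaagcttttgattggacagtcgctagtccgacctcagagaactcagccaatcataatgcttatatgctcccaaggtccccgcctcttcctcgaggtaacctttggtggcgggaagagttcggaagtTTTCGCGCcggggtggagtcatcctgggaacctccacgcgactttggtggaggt
MCM6: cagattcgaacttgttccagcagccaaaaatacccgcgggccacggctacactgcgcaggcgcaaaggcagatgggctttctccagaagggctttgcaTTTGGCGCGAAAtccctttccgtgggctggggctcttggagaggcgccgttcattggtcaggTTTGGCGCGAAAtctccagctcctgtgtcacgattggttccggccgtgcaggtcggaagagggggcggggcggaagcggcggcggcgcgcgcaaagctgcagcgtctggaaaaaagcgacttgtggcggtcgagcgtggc
MCM7: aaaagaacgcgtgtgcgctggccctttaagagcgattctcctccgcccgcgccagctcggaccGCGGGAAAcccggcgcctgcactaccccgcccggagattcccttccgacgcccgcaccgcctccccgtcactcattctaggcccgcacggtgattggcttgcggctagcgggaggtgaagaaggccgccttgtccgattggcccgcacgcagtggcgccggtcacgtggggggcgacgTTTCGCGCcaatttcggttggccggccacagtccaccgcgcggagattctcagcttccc
POLA1: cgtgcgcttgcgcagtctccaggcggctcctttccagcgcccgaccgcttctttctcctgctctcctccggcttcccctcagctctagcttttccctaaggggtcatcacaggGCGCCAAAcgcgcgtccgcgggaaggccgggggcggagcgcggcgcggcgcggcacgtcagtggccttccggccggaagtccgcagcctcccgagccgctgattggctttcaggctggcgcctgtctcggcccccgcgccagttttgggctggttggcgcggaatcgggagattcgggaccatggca

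In MCM6 the same overlapping pair of matches occurs at 2 places, and in MCM2 a pair on opposite strands begins 2 and 6 bases after the gene start. In MCM7 the capitals lie 187 and 9 bases before the start, and in POLA1 a single match lies 137 bases before it. PCNA, CDC6, FANCA, FANCD2, POLE and XRCC6 each had 1 match. A match is a description of these letters and not evidence of a bound factor.

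**Figure D1:**
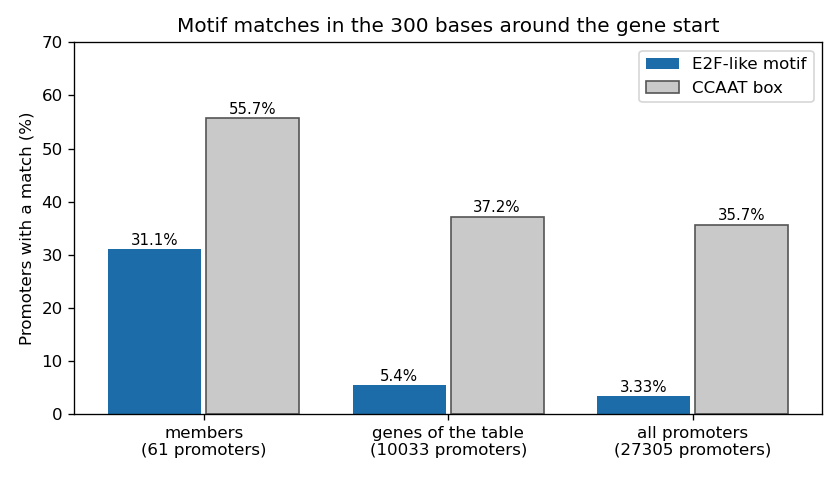
Share of promoters, in percent, with at least 1 E2F-like match (blue bars) or CCAAT box (grey bars) in the 300 bases around the gene start, for 61 member promoters, 10033 promoters of genes in the table and 27305 promoters in all. The E2F-like share of the members (31.1%) stands above both backgrounds.

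Which of these mRNAs were recovered with EXOSC10 beyond IgG was asked first. A gene entered a comparison with at least 100 reads in its libraries together and was counted as higher or lower from a 2-fold difference. In untreated cells 13 members had enough reads. MCM7 and TONSL were at least 2-fold higher with EXOSC10, where 4.95% of 3618 genes were, and MCM4, POLA1 and ORC5 at least 2-fold lower, where 36.9% of genes were. MCM7 and TONSL (28 and 18 IgG reads) passed the minimum through the EXOSC10 library in which they were high. ORC5 (50 EXOSC10 reads) passed it through the IgG library, so MCM7, TONSL and ORC5 had to differ to be counted. The members' median log2 ratio was 0.38 and that of all genes −0.48. With doxycycline 28 members had enough reads, 10 of them higher against 13.3% of 6279 genes, and 3 lower (POLA1, MCM4 and ORC5 again) against 27.0%. The medians were 0.63 for members and 0.01 for all genes. Of the higher members, XRCC3, FANCI, FANCA, POLD4, CHEK1 and MCM5 had 2.3 to 7.0 IgG reads. All of these passed the minimum through the EXOSC10 library in which they were high, so they had to differ to be counted. Among members with whole reads, 3 of 18 were higher (TONSL, RAD18 and MCM5, of which RAD18 and MCM5 had to differ), against 10.5% of such genes. In libraries thinned to equal totals outside ribosomal RNA 2 of 15 were, against 7.44%. Scaled by full library totals, 7 of 13 and 26 of 28 members were higher and none was lower, where 31.3% and 80.9% of genes were higher and 14.5% and 0.541% lower. Scaled by totals without ribosomal RNA, 8 and 21 members were higher and 0 and 1 lower, where 38.3% and 51.9% of genes were higher and 8.43% and 10.5% lower.

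**Figure D2:**
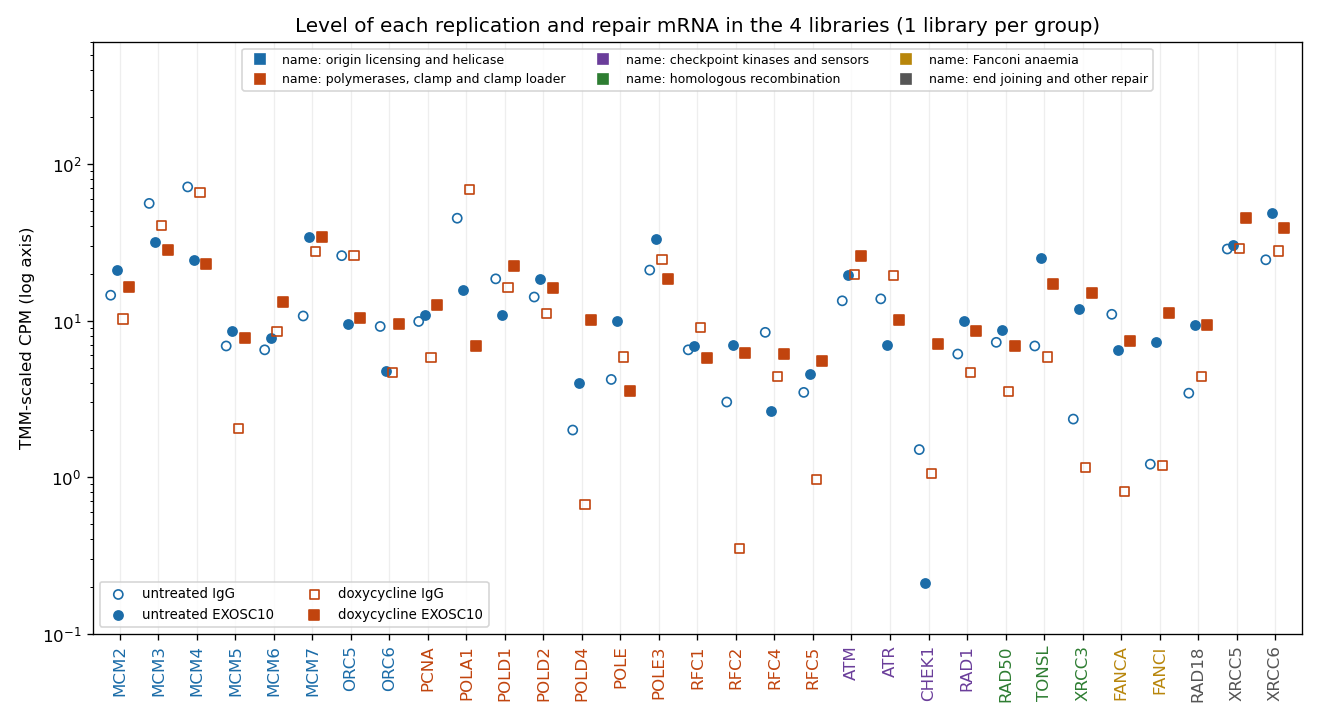
TMM-scaled CPM (log axis) of the 31 members with at least 100 reads in a comparison, in the untreated IgG (open circles), untreated EXOSC10 (filled circles), doxycycline IgG (open squares) and doxycycline EXOSC10 (filled squares) libraries, 1 library each, with gene names coloured by role. On this scale both filled symbols of POLA1, MCM4 and ORC5 lie below both open ones (full library totals turn MCM4 and ORC5 with doxycycline to 0.99 and 1.15 in log2), and both filled symbols of TONSL lie above both open ones.

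Levels below are TMM-scaled CPM in the order untreated IgG, untreated EXOSC10, doxycycline IgG and doxycycline EXOSC10, and are compared between libraries, never between genes. The subunits of the MCM helicase, which are needed in equal numbers in the ring, did not share a direction. MCM4 stood at 71.6, 24.6, 65.6 and 23.1 (187, 129, 224 and 324 reads), so both IgG libraries were high and both EXOSC10 libraries low. Its log2 ratio of EXOSC10 over IgG was −1.54 (−1.88 to −1.21) untreated and −1.5 (−1.76 to −1.25) with doxycycline, the latter turning to 0.99 under full library totals. MCM7 stood at 10.7, 34.4, 27.8 and 34.2 (28, 181, 95 and 480 reads), with only the untreated IgG library low. Its ratio was 1.67 (1.11 to 2.31) untreated and 0.30 (−0.02 to 0.63) with doxycycline, the latter not beyond counting error.

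MCM3, whose reads were divided over 9 entries, stood at 56.1, 32.1, 40.7 and 28.2, lower with EXOSC10 in both treatments at log2 ratios of −0.80 (−1.14 to −0.48) and −0.53 (−0.81 to −0.24). Under full library totals these ratios were 0.01 and 1.96. MCM2 stood at 14.5, 21.1, 10.3 and 16.4, higher with EXOSC10 in both, and with doxycycline its ratio was 0.67 (0.16 to 1.23). MCM5 stood at 6.89, 8.56, 2.05 and 7.77, a ratio of 1.82 (0.83 to 3.27) with doxycycline that rests on 7 IgG reads. MCM6 stood at 6.51, 7.80, 8.49 and 13.1, a ratio of 0.61 (0.06 to 1.24) with doxycycline. Under TMM scaling MCM4 and MCM3 were thus lower and MCM2, MCM5, MCM6 and MCM7 at or above their IgG level.

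Among the origin recognition subunits, ORC5 stood at 26.0, 9.51, 26.1 and 10.3 (68, 50, 89 and 145 reads), with both IgG libraries alike and both EXOSC10 libraries alike. Its ratio was −1.43 (−2.01 to −0.90) untreated and −1.32 (−1.73 to −0.94) with doxycycline, the latter turning to 1.15 under full library totals. ORC6, with divided reads, stood at 9.18, 4.76, 4.67 and 9.55 and had enough reads for this comparison only with doxycycline, at a ratio of 1.00 (0.28 to 1.88). The 2 origin subunits thus lay on opposite sides of their IgG level in treated cells.

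POLA1, the catalytic subunit of the polymerase that makes primers, was farthest below IgG in treated cells among members with at least 100 reads. It stood at 45.2, 15.6, 68.8 and 6.84 (118, 82, 235 and 96 reads, whole once its 5 entries were summed). EXOSC10 over IgG was −1.52 (−1.96 to −1.11) in untreated cells and −3.29 (−3.69 to −2.98) with doxycycline, which is 9.80-fold lower, with 0.9% of 6279 genes at or below it. Its partner POLA2 had 15, 9, 9 and 39 reads, below the minimum, and was at −1.63 (−3.12 to −0.46) untreated and 0.07 (−0.99 to 1.31) with doxycycline.

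The subunits of polymerase delta, which copies the lagging strand, varied. POLD1, its catalytic subunit, stood at 18.5, 10.8, 16.3 and 22.4 with divided reads, and its ratio was −0.77 (−1.36 to −0.19) untreated and 0.45 (0.04 to 0.89) with doxycycline. Under full library totals the untreated ratio was 0.04. POLD2, an accessory subunit with whole reads, stood at 14.2, 18.5, 11.1 and 16.1, with ratios of 0.38 (−0.18 to 0.97) and 0.53 (0.03 to 1.07). The smallest subunit, POLD4, stood at 2.0, 3.98, 0.67 and 10.1, and its ratio of 3.56 (2.14 to 6.68) with doxycycline rests on 2.3 IgG reads that were divided between gene models. The remaining subunit, POLD3, had fewer than 100 reads in each pair and went the other way, at −1.47 (−2.39 to −0.66) untreated and −1.22 (−2.02 to −0.49) with doxycycline. In treated cells POLD1, POLD2 and POLD4 were thus above IgG and POLD3 below it.

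POLE3, a histone-fold subunit of polymerase epsilon, stood at 21.1, 33.5, 24.6 and 18.5 (55, 176, 84 and 260 reads). It was above IgG in untreated cells at 0.67 (0.23 to 1.13) and below it with doxycycline at −0.41 (−0.77 to −0.04), the latter turning to 2.07 under full library totals. PCNA, the sliding clamp, stood at 9.88, 10.9, 5.81 and 12.5, and its ratio with doxycycline was 1.09 (0.44 to 1.86), with divided reads. Of the clamp loader subunits with enough reads, RFC1 was at −0.64 (−1.27 to −0.01) and RFC4 at 0.46 (−0.32 to 1.38) with doxycycline. RFC1 turned to 1.8 under full library totals. Below 100 reads and with divided reads, RFC2 was at 3.54 (1.80 to 8.72) and RFC5 at 2.30 (0.98 to 4.70), so the loader subunits did not lie together.

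Of the damage checkpoint, ATM, the kinase activated by broken ends, stood at 13.4, 19.6, 19.6 and 25.8 with ratios of 0.54 (−0.02 to 1.15) and 0.39 (0.02 to 0.79). ATR, the kinase activated at stalled forks, stood at 13.8, 7.04, 19.3 and 10.1 and was below IgG with doxycycline at −0.93 (−1.38 to −0.50). Under full library totals this ratio turned to 1.53. CHEK1, the kinase downstream of ATR, stood at 1.5, 0.21, 1.05 and 7.08, which is 3.9, 1.1, 3.6 and 99.3 divided reads. It was low in 3 libraries and high in the doxycycline EXOSC10 library alone, at 2.54 (1.28 to 4.80) over IgG. RAD1, part of the clamp that senses damaged forks, was at 0.85 (0.12 to 1.73) with doxycycline. Under TMM scaling ATR thus lay below IgG and the other 3 kinases and sensors above it.

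TONSL, which acts with MMS22L in recombination at stalled forks, stood farthest above IgG in untreated cells among members with at least 100 reads. It passed that minimum there through the EXOSC10 library in which it was high. It stood at 6.89, 25.1, 5.86 and 17.03 (18, 132, 20 and 239 reads), with both EXOSC10 libraries above both IgG libraries. EXOSC10 over IgG was 1.84 (1.15 to 2.67), or 3.57-fold, in untreated cells and 1.51 (0.88 to 2.28), or 2.84-fold, with doxycycline. RAD50, the coiled-coil subunit of the complex that tethers broken ends, stood at 7.27, 8.75, 3.51 and 6.91, a ratio of 0.94 (0.11 to 1.98) with doxycycline.

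XRCC3, a recombination factor, stood at 2.35, 11.9, 1.15 and 15.1, and FANCI, which works with FANCD2 as the ubiquitinated clamp of the Fanconi pathway, at 1.21, 7.35, 1.18 and 11.2. Their ratios with doxycycline were 3.50 (2.33 to 5.63) and 3.04 (1.86 to 5.12). Both genes overlap a neighbour and carry divided reads. When XRCC3 was summed with KLC1 its ratio turned to −0.77, and when FANCI was summed with POLG it turned to −0.64, so these 2 directions hold only for the division of reads as deposited. FANCA, a subunit of the Fanconi core complex, stood at 10.98, 6.53, 0.81 and 7.37, a ratio of 2.90 (1.54 to 5.61) with doxycycline that was 1.80 when summed with the overlapping ZNF276. MCM7 overlaps AP4M1 and kept 1.53 untreated when summed with it.

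The Ku subunits bind broken ends before they are joined. XRCC6, with divided reads, stood at 24.5, 48.5, 27.9 and 39.2 and was above IgG in both treatments, at 0.98 (0.59 to 1.41) and 0.49 (0.18 to 0.82). XRCC5, with whole reads, stood at 28.7, 30.6, 29.0 and 45.4, with ratios of 0.09 (−0.31 to 0.51) and 0.64 (0.34 to 0.97). RAD18, the ubiquitin ligase of PCNA, stood at 3.44, 9.32, 4.39 and 9.33, with a ratio of 1.05 (0.31 to 1.97) with doxycycline. Both partners of Ku were therefore above IgG in treated cells, neither by 2-fold.

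**Figure D3:**
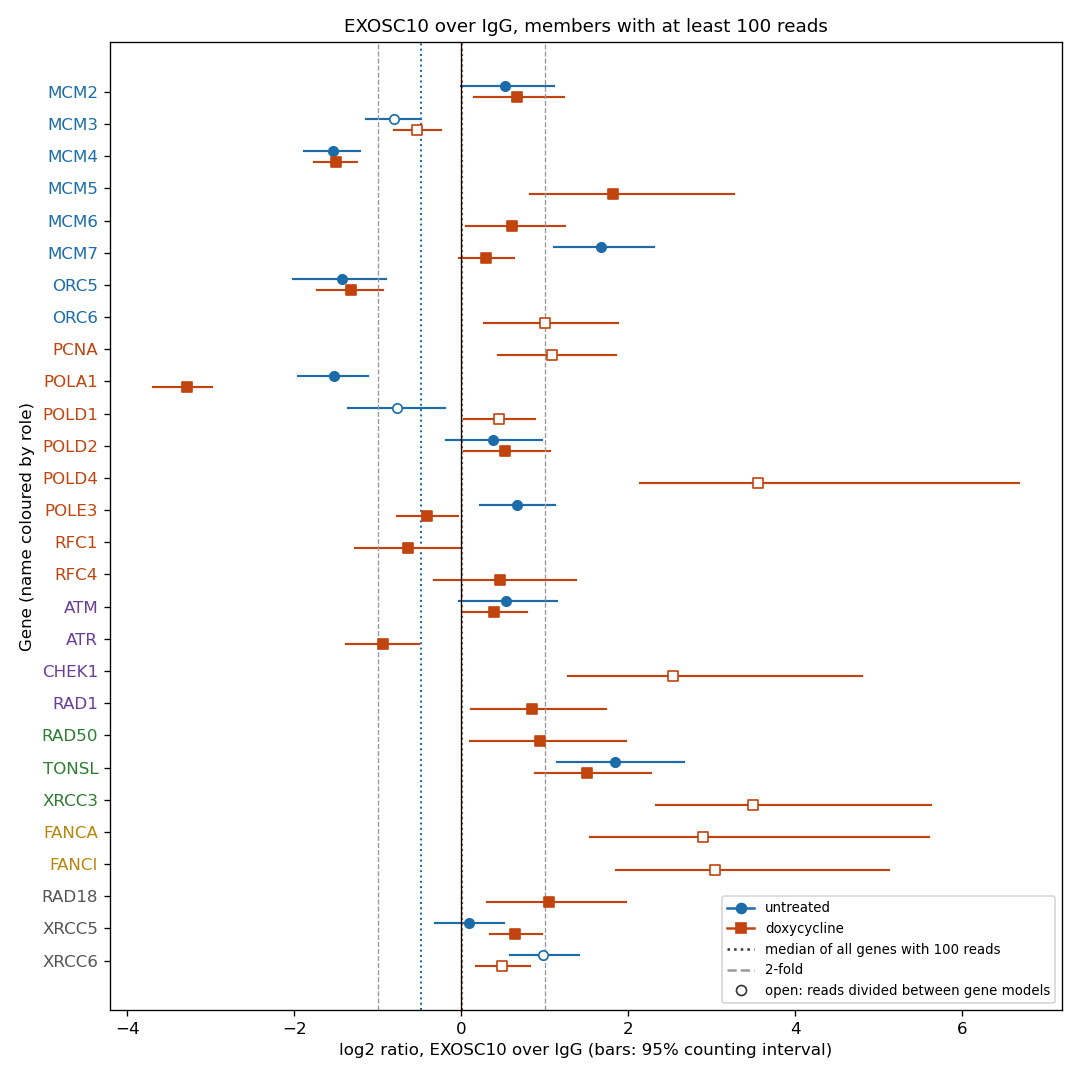
Log2 ratio of EXOSC10 over IgG for members with at least 100 reads, in untreated cells (blue circles) and with doxycycline (orange squares), 1 library per group, with bars for 95% counting intervals, open symbols for divided reads, dotted lines at the medians of all genes (−0.48 untreated, 0.01 with doxycycline) and dashed lines at 2-fold. Under TMM scaling POLA1, MCM4 and ORC5 lie left of the lower dashed line in both treatments (MCM4 and ORC5 turn to 0.99 and 1.15 with doxycycline under full totals), and TONSL lies right of the upper one in both.

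Reads were also summed by role. Homologous recombination genes together stood above IgG at a log2 ratio of 1.26 (0.92 to 1.60) untreated and 1.27 (1.00 to 1.55) with doxycycline, with TONSL and XRCC3 giving the most reads in both EXOSC10 libraries. Licensing and helicase genes stood below IgG at −0.32 (−0.47 to −0.17) and −0.23 (−0.35 to −0.10), and polymerase, clamp and loader genes at −0.21 (−0.39 to −0.04) and −0.36 (−0.50 to −0.22). With doxycycline the median of the single genes with enough reads had the opposite sign in both roles, 0.46 each. The sums were taken under TMM scaling only. Full library totals moved the median of all genes by 0.82 untreated and 2.46 with doxycycline, more than these roles lay below IgG. A few genes carry these sums, POLA1 with 235 of the 559 IgG reads of its role, and MCM4 with 224 and MCM3 with 139.0 of the 696 of theirs. Fanconi genes were at 0.34 (−0.08 to 0.78) untreated and 1.58 (1.13 to 2.05) with doxycycline, the latter against 44 IgG reads in all.

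The antibody effect was also tested with limma over all 4 libraries, with treatment as covariate, which leaves 1 residual degree of freedom and lets treated and untreated cells stand in for replicates. The labels do not state separate cultures, so p-values measure only the spread between these libraries. Of 58 members tested, 3 were higher with EXOSC10 at an adjusted p under 0.05, against 1.26% of 9594 genes, and 3 were lower, against 16.2%. The lower members were MCM4 (log2 −1.52, SE 0.26, limma adjusted p = 0.00419), POLA1 (−2.41, SE 0.42, limma adjusted p = 0.00447) and ORC5 (−1.38, SE 0.33, limma adjusted p = 0.0212). The higher members were XRCC3 (2.87, SE 0.61, limma adjusted p = 0.0114), TONSL (1.67, SE 0.38, limma adjusted p = 0.0166) and FANCI (2.73, SE 0.68, limma adjusted p = 0.0236). Summed with their overlapping genes, XRCC3 was at −0.67 and FANCI at −0.65, with limma adjusted p of 0.105 and 0.17, which leaves TONSL as the higher member. Scaled by totals without ribosomal RNA, MCM4 (−0.46, limma adjusted p = 0.161) and ORC5 (−0.33, limma adjusted p = 0.412) were no longer called, while 29 members were higher, as were 3501 of the 9594 genes. With overlapping genes summed, 7 members were lower, as were 1558 of the 9594 genes. Scaled by full totals, MCM4 and ORC5 turned to 0.13 and 0.26, and POLA1 (−0.77) and TONSL (3.29) kept their sign with limma adjusted p of 0.696 and 0.131. Over the 58 members the median effect was 0.60, and over all genes 0.18.

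The primary question of the design was what doxycycline changed in the RNA recovered with EXOSC10. Of 31 members with enough reads, CHEK1, POLD4, RFC4 and POLD1 were at least 2-fold higher with doxycycline, against 5.83% of 6584 genes, and POLE and POLA1 at least 2-fold lower, against 4.19%. The members' median was 0.00 and that of all genes −0.06, and 16 of the 31 intervals included 0. Of the higher members RFC4 alone had whole reads (14 and 86, together just the minimum of 100). CHEK1, POLD4 and RFC4 passed the minimum through the treated library in which they were high. POLE, with 52 and 50 reads, passed it through the untreated library, so all of these had to differ to be counted. In thinned libraries 1 of 19 members was higher, against 1.93% of genes, and with a pseudocount of 1 CPM 2 of 31 were, against 4.43%. Scaled by full totals, 17 members were higher and none lower, where 47.8% of genes were higher and 0.122% lower. In the IgG libraries 11 members had enough reads. MCM7 was higher, against 2.78% of 3027 genes, and none was lower, against 3.80%. With 28 and 95 reads, MCM7 passed the minimum through the treated library in which it was high, so it had to differ to be counted. With a minimum of 20 reads the balance turned, with 2 of 33 members higher and 8 lower, against 8.23% and 7.86% of genes, and the members' median minus that of all genes went from 0.26 to −0.31. Scaled by full totals, no member was higher and 1 was lower, where 0.396% of genes were higher and 26.5% lower.

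Helicase and origin genes with at least 100 reads differed by less than 2-fold between the EXOSC10 libraries, while below that minimum CDC7 was at −1.23 (−2.71 to −0.12) and ORC4 at 1.03 (0.10 to 2.29). MCM7, MCM4, MCM5 and MCM3 were at −0.01, −0.09, −0.14 and −0.18, all with intervals that include 0. MCM2 was slightly lower at −0.36 (−0.70 to −0.03), while MCM6 was at 0.73 (0.25 to 1.27) and ORC6 at 0.98 (0.38 to 1.68). In the IgG libraries MCM7 was at 1.36 (0.76 to 2.04), MCM3 at −0.46 (−0.81 to −0.12) and ORC5 at 0.00 (−0.47 to 0.48). For MCM7 the IgG pair differed beyond counting error, while the interval of the EXOSC10 pair (−0.26 to 0.24) included 0.

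The polymerase genes held most of the 2-fold differences. POLE, the catalytic subunit of the leading-strand polymerase, stood at 4.21, 9.90, 5.86 and 3.56 (11, 52, 20 and 50 reads), high in the untreated EXOSC10 library, and its ratio of doxycycline over untreated was −1.42 (−2.06 to −0.89). POLA1 was at −1.17 (−1.63 to −0.75) with EXOSC10 and at 0.61 (0.28 to 0.94) with IgG. Its lower level with EXOSC10 lay in entries 4 and 5 of its 5, which went from 10.7 and 38.8 to 1.8 and 0.7 reads. Entries 1 to 3 went from 7.8, 15.4 and 9.2 reads to 22.6, 44.3 and 26.5. These reads are not scaled: 3 reads made 0.5709 TMM-scaled CPM in the untreated EXOSC10 library and 0.2138 in the treated one. After scaling, entries 1 to 3 thus changed little. POLE3 was at −0.85 (−1.14 to −0.57) with EXOSC10 and 0.22 (−0.28 to 0.74) with IgG. In the other direction POLD1 was at 1.04 (0.64 to 1.49), POLD4 at 1.3 (0.68 to 2.08) and RFC4, a clamp loader subunit at 8.42, 2.66, 4.39 and 6.13, at 1.14 (0.38 to 2.13). The catalytic subunits of alpha and epsilon were thus lower and that of delta higher in the treated EXOSC10 library.

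CHEK1 differed most of all members between the EXOSC10 libraries, at 4.14 (2.65 to 9.90), from 1.1 to 99.3 divided reads in 1 entry. ATM was at 0.39 (0.08 to 0.73) and ATR at 0.50 (−0.02 to 1.08). In the IgG libraries ATM was at 0.54 (−0.06 to 1.18) and ATR at 0.48 (−0.12 to 1.12). TONSL was lower at −0.56 (−0.87 to −0.24), XRCC6 at −0.31 (−0.53 to −0.09), and XRCC5 higher at 0.56 (0.32 to 0.83), each under 2-fold. FANCI was at 0.59 (0.09 to 1.15) and XRCC3 at 0.34 (−0.07 to 0.78), and these became 0.08 and −0.48 when summed with their overlapping genes.

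**Figure D4:**
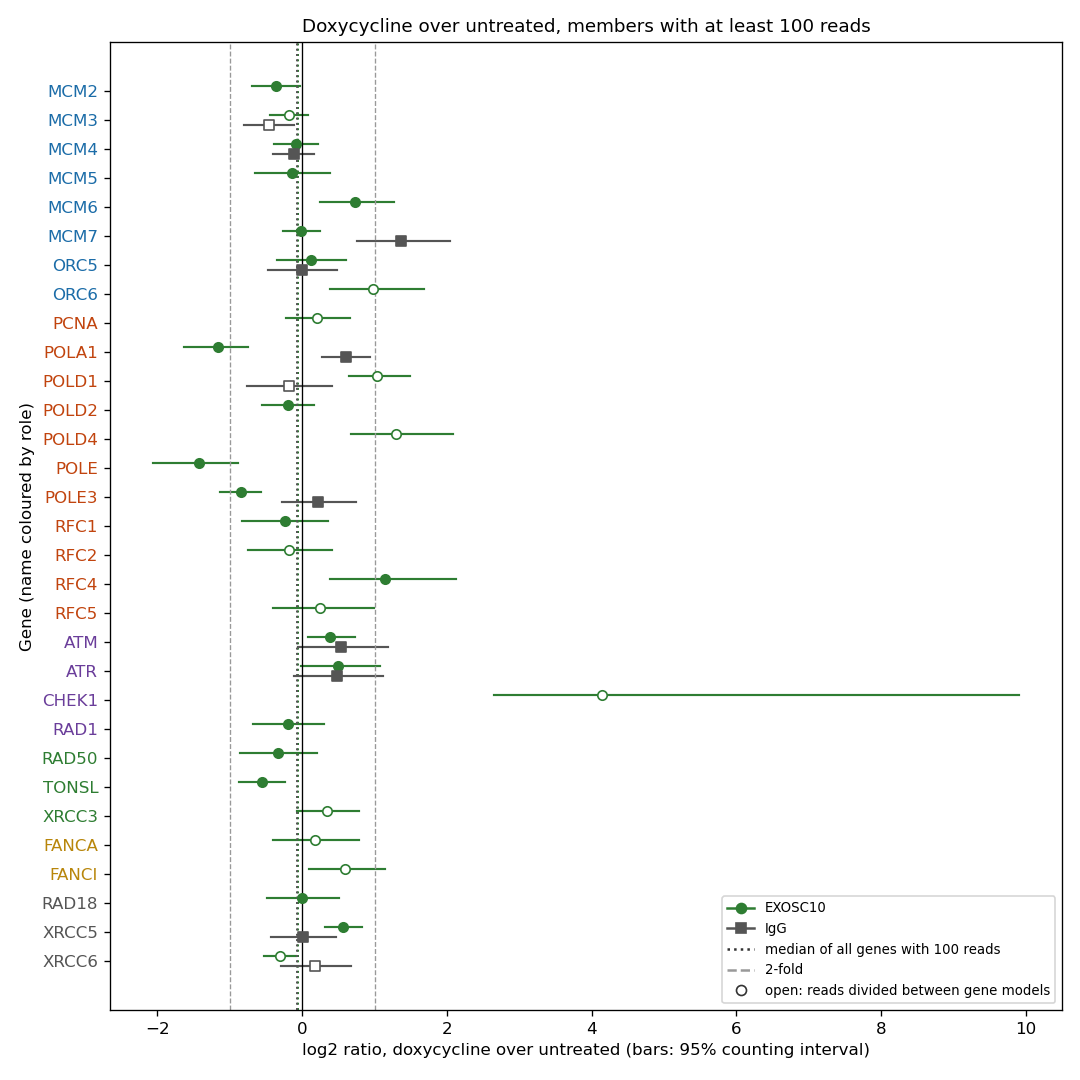
Log2 ratio of doxycycline over untreated for members with at least 100 reads, in the EXOSC10 libraries (green circles) and the IgG libraries (grey squares), 1 library per group, with bars for 95% counting intervals, open symbols for divided reads, dotted lines at the medians of all genes (−0.06 and −0.07) and dashed lines at 2-fold. POLE and POLA1 lie left of the lower dashed line in EXOSC10, and MCM7 lies right of the upper one in IgG alone.

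With limma over all 4 libraries and the antibody as covariate, no member and none of 9594 genes had an adjusted p under 0.05 for doxycycline. The smallest limma adjusted p was 0.843 for members and for all genes alike. Unadjusted p-values under 0.05 were found for 1 of 58 members, BRCA1 (log2 2.52, SE 1.04), and for 453 genes. BRCA1, which guides repair into recombination, had 0.0, 10.0, 7.0 and 83.6 divided reads.

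The change of enrichment is the log2 ratio of EXOSC10 over IgG with doxycycline minus that without, and was taken where the IgG libraries and the EXOSC10 libraries each held 100 reads together. Of 11 members, POLD1 was at least 2-fold higher at 1.22 (0.53 to 1.91), where 4.75% of 2946 genes were. POLA1 at −1.77 (−2.30 to −1.24), MCM7 at −1.37 (−2.03 to −0.71) and POLE3 at −1.07 (−1.63 to −0.51) were at least 2-fold lower, where 10.9% of genes were. With a minimum of 20 reads the balance turned, with 10 of 33 members higher and 4 lower, against 12.2% and 14.4% of genes, while with whole reads (8 members, 4.39% of genes) or in thinned libraries (8 members, 4.55%) none was higher. For POLA1 both pairs contributed, since its summed level was lower in the treated EXOSC10 library and higher in the treated IgG library. In the EXOSC10 pair the lower level lay in entries 4 and 5 of its 5. For MCM7 the IgG libraries carried the difference, and it passed the minimum through the treated one (28 and 95 reads). MCM4 at 0.04 (−0.37 to 0.44) and ORC5 at 0.11 (−0.54 to 0.76) had much the same ratio in both treatments, and the members' median was 0.02 against −0.14 over all genes. Scaled by full totals, 8 members were higher and none lower, where 77.2% of genes were higher and 0.373% lower, and MCM7 and POLE3 turned to 0.30 and 0.59.

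Across the 13 members with enough reads in both treatments, 11 had the same sign of EXOSC10 over IgG in untreated and treated cells, the exceptions being POLD1 and POLE3. Pearson's r across these genes was 0.78 and Spearman's rho 0.64, beside 0.79 and 0.81 across 3598 genes. Across the 11 members measured in both antibodies, the ratios of doxycycline over untreated gave r = −0.19 and rho = −0.23. These are descriptions across genes of the same 4 libraries, and genes are not independent replicates. Members span from 2832 to 863318 bases with a median of 44024, and with log10 span the ratio of EXOSC10 over IgG had rho = −0.42 across 13 members untreated and −0.20 across 28 with doxycycline, beside −0.09 and −0.13 over all genes.

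The members below 100 reads are most of the recombination and Fanconi genes. With a minimum of 20 reads, 50 members entered EXOSC10 over IgG untreated, 16 of them higher and 7 lower, against 16.5% and 23.1% of genes. With doxycycline 66 entered, 28 higher and 5 lower, against 25.5% and 20.1%. CDC45, the helicase cofactor, had less than 1 read in the untreated IgG library and 25.1 in the untreated EXOSC10 library, at least 4.16-fold higher when that library is set to 3 reads, the floor for a missing count. PALB2, which links BRCA1 to BRCA2, had no read in the doxycycline IgG library and 42.0 with EXOSC10, at least 3.41-fold higher on the same floor. RAD51B, a recombination factor, had 1.0, 0.0, 0.0 and 42.2 divided reads, and its level with doxycycline was at least 5.26-fold higher than in untreated cells in the EXOSC10 libraries. XRCC4, of end joining, went the other way on 0.0, 10.2, 6.4 and 0.0 divided reads. In the doxycycline EXOSC10 library it was at least 8.77-fold lower than with IgG and at least 9.09-fold lower than in untreated cells, on the same floor. BRCA2, which loads the recombinase, had 5, 13, 10 and 62 reads, so its recovery was measured only coarsely at this depth.

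The wider pathway was read from a list of 91 other replication and repair genes, of which 90 had entries. For EXOSC10 over IgG, 2 of 19 with enough reads were higher and 4 lower in untreated cells (median −0.03), and 12 of 51 were higher and 8 lower with doxycycline (median 0.47), beside the shares of all genes given above. DDB1, a subunit of the damage-sensing ubiquitin ligase, was lower at −1.59 (−1.69 to −1.48) and −2.82 (−2.90 to −2.73), on 1834, 1228, 3088 and 1801 reads. TOP2A, the topoisomerase that untangles replicated DNA, was lower at −1.62 (−1.85 to −1.40) and −1.74 (−1.88 to −1.59). RPA1, the large subunit of the single-strand binding protein, was higher untreated at 1.14 (0.70 to 1.62), with divided reads. By limma 3 of 77 listed genes were higher with EXOSC10 (RPA1, RRM1 and HUS1) and 6 lower (DDB1, TOP2A, MSH6, H2AX, POLH and PRIM1). PRIM1 is the primase subunit that works in one complex with POLA1, and its limma effect was −2.37 (SE 0.54, limma adjusted p = 0.0160). POLA2, of the same complex, was at −0.78 (SE 0.77) and was not called.

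For doxycycline over untreated in the EXOSC10 libraries, 7 of 51 listed genes were higher and none lower (median 0.25), beside 5.83% and 4.19% of all genes (median −0.06). ERCC4, a nuclease subunit of excision repair with whole reads, was at 1.77 (1.08 to 2.67), from 16 to 152 reads. EXO1, the nuclease that resects broken ends, was at 2.79 (1.79 to 4.57), with divided reads. Both ERCC4 and EXO1 passed the minimum through the treated library in which they were high. DDB1 was the lowest at −0.86 (−0.97 to −0.76). In the IgG libraries none of 16 was higher and RECQL4, a helicase of replication initiation, was lower at −1.0 (−1.60 to −0.45). With 68 and 44 reads, RECQL4 passed the minimum through the untreated library.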

How the data were processed

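Per the labels' protocols, total RNA went into SMARTer mRNA-Seq libraries. STAR, Partek and hg38 are named per the submitters' processing notes. Versions, annotation, strand and counting settings were not given in the sources used here. In the deposited table the authors gave CPM, with a constant of 0.0001 on each of 24015 entries, and each library sums to 1000000 apart from that constant. Entries of a symbol were summed after the constant was removed. Reads were estimated as CPM over the value of 1 read. Because 38 members have divided reads, no count model was used, although the tests had been planned to allow one.

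TMM factors (30% of ratios and 5% of levels trimmed) were computed over all 4 libraries with numpy 2.4.6 and pandas 2.3.3 in Python 3.11.15. Ratios are log2 of scaled CPM plus 0.2, which understates the change of low genes. Intervals are exact Clopper-Pearson intervals on reads (scipy 1.17.1), or from summed reciprocal reads for the change of enrichment. Reads carry no molecular identifiers, so they do not count independent molecules, and intervals and floors cover counting error only. Between 67.58% and 73.98% of genes in a library had reads within 0.05 of a whole number.

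The tests used limma 3.58.1 in R 4.3.3 with a trended prior variance and adjusted p-values by Benjamini-Hochberg (threshold 0.05), for genes that reached 10 reads in 2 or more libraries. The procedure was tested on simulated data. Positions of promoters and gene spans are from RefSeq GRCh38.p14, the same build as hg38, with 1-based coordinates.

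Members and lists were chosen with earlier results of these data known. Named genes were, in each comparison, the members whose interval bound lay farthest from 0 (10 each way), the highest and lowest of each role, TONSL, CHEK1 and PCNA, and up to 3 listed genes each way. Members below the minimum were named for their role after their values were seen.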

Additional observations from a re-analysis of the deposited data

Results flagged for a closer look

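POLD1, the catalytic subunit of polymerase delta, was below IgG in untreated cells and above it with doxycycline (−0.77 and 0.45 in log2), a change of 1.22. Under full library totals its untreated ratio was 0.04. POLE3, an accessory subunit of polymerase epsilon, went the other way (0.67 and −0.41), a change of −1.07, which turned to 0.59 under full library totals. POLA1 was lower with doxycycline in the EXOSC10 libraries and higher in the IgG libraries (−1.17 and 0.61), a difference of −1.77. The lower level in the EXOSC10 libraries lay in entries 4 and 5 of its 5. Under TMM scaling, both pairs of POLA1 thus moved beyond counting error in opposite directions. For POLD1 and POLE3 the IgG pair did not move beyond it, at −0.18 (−0.76 to 0.41) and 0.22 (−0.28 to 0.74). These differences were not tested, since each group is 1 library.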

How the results depend on the processing

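Median-of-ratios scaling kept all 19 summary values within the limits set (counts within 1.5 times) and all 100 values of single genes. Over all alternatives, 523 values of single genes stayed the same, 121 moved, 4 lost their call and 10 reversed. All the lost calls and 6 of the reversals came from scaling by totals. Only values first called, by 2-fold or by limma, could count as reversed, and sign changes of smaller ratios count as moved. Under full totals ATR (1.53), MCM3 (1.96), POLE3 (2.07) and RFC1 (1.8) changed sign in this way for EXOSC10 over IgG with doxycycline. Full library totals gave 7 higher and 0 lower members for EXOSC10 over IgG untreated, 26 and 0 with doxycycline, 17 and 0 for doxycycline in EXOSC10, 0 and 1 in IgG, 8 and 0 for the change of enrichment and 8 and 0 in limma's antibody test (514 and 6 of 9594 genes). They reversed MCM4 (0.99) and ORC5 (1.15) for EXOSC10 over IgG with doxycycline, MCM4 (0.13) and ORC5 (0.26) in limma, and MCM7 (0.30) and POLE3 (0.59) for the change. Totals without ribosomal RNA gave 8 and 0, 21 and 1, 1 lower for doxycycline in EXOSC10, and 29 and 1 in limma (3501 and 588 of 9594 genes). These totals differ from TMM by 1 factor per library. A pseudocount of 1 CPM gave 2 higher for doxycycline in EXOSC10 (4.43% of genes) and 6 higher in limma (324 of 9594 genes). A minimum of 20 reads gave 16 and 7 (16.5% and 23.1% of genes), 28 and 5 (25.5% and 20.1%), 13 and 5 (16.4% and 7.98%), 2 and 8 (8.23% and 7.86%), and 10 and 4 for the change (12.2% and 14.4%), with the IgG median at −0.31 relative to all genes. A minimum of 500 reads left 5 and 4 members in the doxycycline and EXOSC10 comparisons, with 0 and 1 and 0 and 0 called and a median of 1.33 above all genes in the former, and no member in the other 3. Members with whole reads gave 3, 1 and 0 higher with doxycycline over IgG, for doxycycline in EXOSC10 and for the change (10.5%, 4.11% and 4.39% of genes). Thinning gave 2 of 15 and 0 of 8 higher for the first and last (7.44% and 4.55% of genes) and 1 higher and 1 lower of 19 for the second (1.93% and 4.22%). In limma, no filter gave 5 higher of 69, where 340 of 12838 genes were. With 20 reads in all libraries 1 of 14 members was higher and 5 lower, where 134 and 1775 of 4518 genes were. Summing overlapping gene models, added after seeing the data, reversed FANCI (−0.64, limma −0.65) and XRCC3 (−0.77, limma −0.67) and gave 1 higher and 7 lower in limma (116 and 1558 of 9594 genes). The causes were not tested. The doxycycline test called no member under the alternatives run, and over all genes it called 11 higher under full totals and 1 higher and 4 lower with no filter.

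No paired analysis was possible because the labels give no replicate numbers, though limma's antibody test has treatment as covariate, and leaving out a library leaves no residual degree of freedom. In single-library comparisons, depth left 56 of 69 members below 100 reads in untreated cells and 41 with doxycycline.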
